A study of Mus musculus with 9 samples.

Results

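The mouse genes that encode the opioid peptide precursors (Penk, Pdyn, Pomc and Pnoc) and their receptors (Oprm1, Oprd1, Oprk1 and Oprl1) were followed in the brain of 3 inbred strains. Every probe set annotated to 1 of these 8 genes and to no other gene was taken, which gave 15 of the 45037 probe sets tested, 5 for the precursors and 10 for the receptors. The 8 genes are among 18193 with such a probe set. The rule uses annotation and no measured value, although the gene family was picked with earlier results of these data known.

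The 3 strains were B6By.C.132.54, BALB/cJ and C57BL/6ByJ, all as untreated, experimentally naive males aged 11 ± 1 weeks. By mouse nomenclature the name B6By.C.132.54 marks BALB/c donor segments on a C57BL/6By background; which segments were carried is not given in the sources used here. No transgene, induced mutation or drug was part of any group. Each array held RNA from a pool of 10 hemispheres, left and right in turn and with the cerebellum removed, and each strain had 3 arrays, so the spread given below is that between pools and not between mice. All 7 neuron markers examined, 6 of 6 astrocyte markers and 5 of 5 oligodendrocyte markers lay above the median probe set, against 3 of 7 cerebellum markers and 1 of 7 pituitary hormone markers. Median intensities of the 9 arrays ran from 15.489 to 15.986.

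Opioid peptides are cut out of large precursor proteins by prohormone convertases, stored in dense-core vesicles and released onto G protein-coupled receptors that act through inhibitory G proteins, which damp the firing of the target cell and its release of transmitter. Enkephalins from Penk act mainly on the delta receptor (Oprd1) and the mu receptor (Oprm1), beta-endorphin from Pomc on the same pair, dynorphins from Pdyn on the kappa receptor (Oprk1), and nociceptin from Pnoc on its own receptor (Oprl1), which does not bind the classical opioid drugs with high affinity. In the forebrain, Penk and Pdyn are known for separate sets of striatal projection neurons, Pomc for neurons of the arcuate nucleus, and the receptors for roles in pain, reward and the response to morphine.

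None of the 15 probe sets passed the test (limma adjusted p under 0.05) in any pair of strains. Over all probe sets 1.43% passed in BALB/cJ against C57BL/6ByJ, 1.28% in B6By.C.132.54 against BALB/cJ and 0% in B6By.C.132.54 against C57BL/6ByJ. The enkephalin precursor and the brightest probe set of the nociceptin receptor gave clear signals that lay within narrow limits on all 9 arrays. The dynorphin precursor had the widest strain difference, with lower values in BALB/cJ than in either other strain, but from a signal below that of the median probe set and without passing the test.

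How far each gene stood above background set what could be seen. The table holds 1 intensity per probe set and array with no detection call, so levels were placed among the means of all probe sets, whose median was 3.97 on the log2 scale. As a second mark, the 3 probe sets for bacterial tryptophan genes, which are array controls, lay between 2.16 and 2.67; whether their RNA was added is not recorded. Penk lay at the 98.4th percentile of all probe sets, the brightest Oprl1 probe set at the 87.9th, Pnoc at the 74.8th, the brighter Pomc probe set at the 71.4th and the brighter Oprk1 probe set at the 66.9th. The brightest Oprm1 probe set stood only at the 53.9th percentile, Pdyn at the 42.2nd and Oprd1 at the 24.2nd. In all, 9 of the 15 probe sets were above the median on every array and 6 were below it on every array. The 6 dim ones were the only probe sets of Pdyn and Oprd1, a second one each for Pomc and Oprk1, and 2 of the 4 for Oprm1. A percentile stands in for nearness to background, which was not measured. It does not rank the genes by amount of RNA, because probe sets differ in their response.

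**Figure D1:**
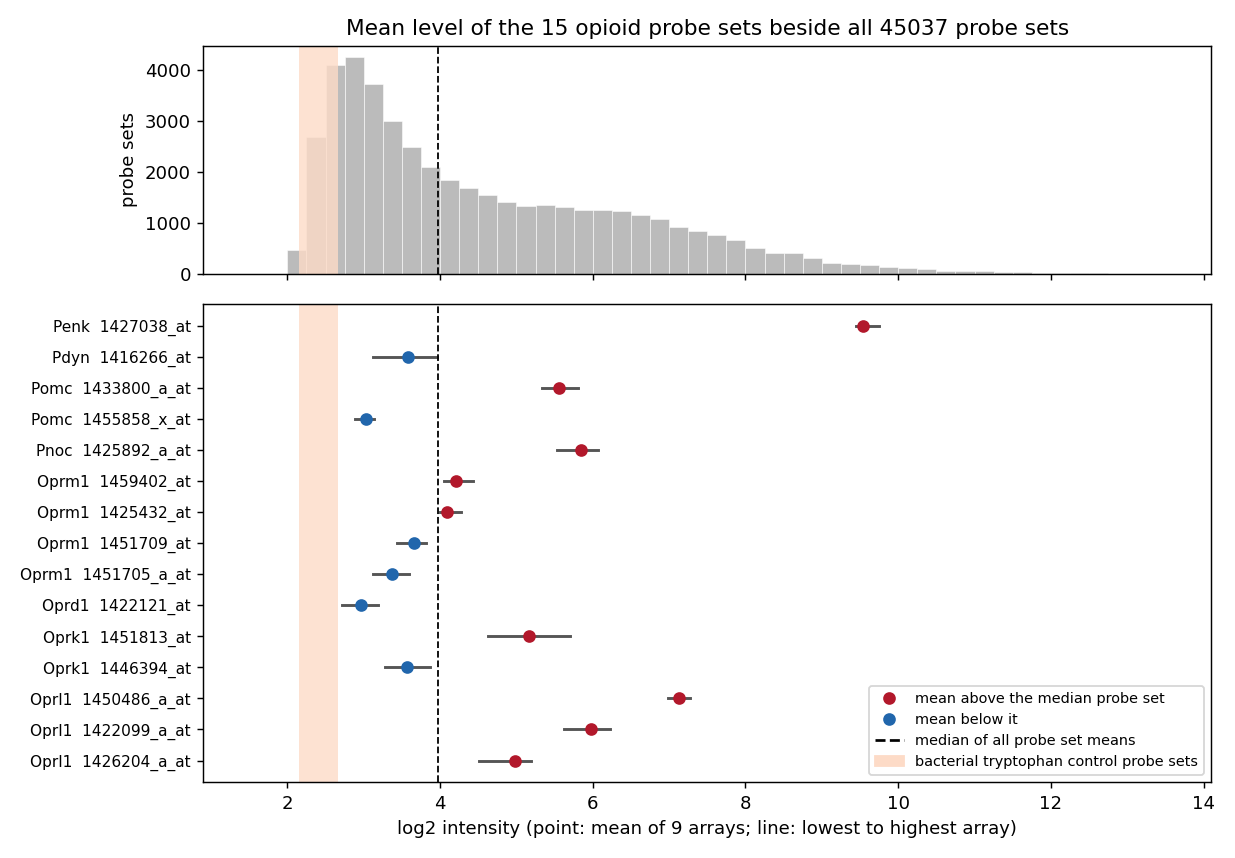
The lower panel gives the mean log2 intensity of each of the 15 probe sets (points; lines run from the lowest to the highest of the 9 arrays) under the distribution of the means of all 45037 probe sets (upper panel). The dashed line is the median, 3.97, and the shaded band the bacterial tryptophan controls; 9 probe sets lie to the right of the dashed line and 6 to its left.

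Of the 15 probe sets, 12 (80%) had exactly the same deposited value on at least 2 arrays, against 61.5% of all probe sets. They were 7 of the 9 above the median, against 50.9% of all probe sets above it, and 5 of the 6 dim ones, against 72.2% of all at or below it. The repeats were thus not limited to low signals, although over all probe sets they were more common there. The value 3.64 for Pdyn occurred on 4 arrays, 2 of B6By.C.132.54 and 2 of C57BL/6ByJ, and the value 4.19 for Oprm1 (1459402_at) also occurred on 4 arrays spread over all 3 strains.

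Among the precursors, Penk (1427038_at, chromosome 4) gave a strong signal with little spread. Its log2 intensities were 9.45, 9.56 and 9.48 in B6By.C.132.54, 9.45, 9.76 and 9.59 in BALB/cJ, and 9.52, 9.53 and 9.53 in C57BL/6ByJ. All 3 strains overlapped, and BALB/cJ held both the lowest and the highest array. The difference of B6By.C.132.54 from C57BL/6ByJ was -0.03 (95% interval -0.23 to 0.17) and that of BALB/cJ from C57BL/6ByJ was 0.07 (-0.13 to 0.27). In intensity, the interval for BALB/cJ against C57BL/6ByJ ran from -8.88% to 20.7%.

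Pdyn (1416266_at, chromosome 2), the precursor of the dynorphins, read 3.64, 3.64 and 3.66 in B6By.C.132.54, 3.50, 3.37 and 3.12 in BALB/cJ, and 3.96, 3.64 and 3.64 in C57BL/6ByJ. Every BALB/cJ array lay under every array of the other strains. BALB/cJ averaged 3.33 ± 0.19 and C57BL/6ByJ 3.75 ± 0.18 (SD, n = 3 each), a difference of -0.41 (95% interval -0.67 to -0.15), or -24.9% in intensity, which did not pass the test (limma adjusted p = 0.207). B6By.C.132.54 averaged 3.65 ± 0.013 and stood 0.32 above BALB/cJ (95% interval 0.05 to 0.58, limma adjusted p = 0.496), and its difference from C57BL/6ByJ was -0.10 (-0.36 to 0.16). By replicate number, BALB/cJ minus C57BL/6ByJ was -0.45, -0.27 and -0.52, and the lack of overlap already fixes the common sign. The order of the strains was C57BL/6ByJ, then B6By.C.132.54, then BALB/cJ, and the upper pair overlapped. All 9 values were below the median probe set. Pdyn has 1 probe set here, and whether its signal follows the RNA was not tested. If it does, fewer cells of a type and less RNA per cell cannot be told apart in tissue of this kind.

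Penk and Pdyn mark striatal projection neurons, and 7 other genes of the striatal list were read beside them. Of these, 6 were higher in BALB/cJ than in C57BL/6ByJ (median difference 0.14, against 0.02 over all genes), the opposite direction to Pdyn. The other one, Tac1, the substance P precursor, ran the same way as Pdyn, with a difference of -0.39 (SE 0.21, limma adjusted p = 0.79). Drd1, the dopamine D1 receptor, was among the 6, at 0.22 (SE 0.13). Of all genes, 44.7% were lower in BALB/cJ than in C57BL/6ByJ, and 51.3% of those above the median level. In B6By.C.132.54 against BALB/cJ, 6 of the 7 were lower (median -0.25, against -0.02 over all genes), with Tac1 at 0.07 and Drd1 at -0.40. There 58.2% of all genes were lower, and 63.7% of those above the median level. In B6By.C.132.54 against C57BL/6ByJ, all 7 were lower (median -0.14, against -0.02 over all genes), where 55.1% of all genes and 67.3% of those above the median level were also lower. After quantile normalization 6 of the 7 were lower there, with a median of -0.08, against 45.8% of all genes and a median of 0.01. At their brightest probe sets, used here, none of the 7 passed the test in any pair of strains. A dimmer Rgs9 probe set, 1439635_at, passed in both pairs with BALB/cJ, as given below. The summed intensity of the 7 brightest probe sets ran from 1448 to 1720 in B6By.C.132.54, 1651 to 1930 in BALB/cJ and 1691 to 1755 in C57BL/6ByJ. The part of these shifts in the Penk and Pdyn values was not tested.

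Pomc, the precursor of beta-endorphin and of the melanocortins, was read by a pair of probe sets (chromosome 12). The brighter, 1433800_a_at, had log2 intensities of 5.62, 5.51 and 5.63 in B6By.C.132.54, 5.54, 5.38 and 5.81 in BALB/cJ, and 5.53, 5.61 and 5.33 in C57BL/6ByJ, with all strains overlapping. Its differences were 0.10 for B6By.C.132.54 against C57BL/6ByJ (95% interval -0.16 to 0.36) and 0.09 for BALB/cJ against C57BL/6ByJ (-0.17 to 0.35). The other, 1455858_x_at, whose suffix marks probes that can match further sequences, stayed between 2.89 and 3.14 on all 9 arrays. The pituitary is the other main source of Pomc RNA. Of 7 other pituitary markers only Lhb lay above the median probe set, and their summed intensity ran from 75.4 to 78.5 in B6By.C.132.54, 76.3 to 79.8 in BALB/cJ and 71.5 to 79.3 in C57BL/6ByJ.

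Pnoc (1425892_a_at, chromosome 14), the nociceptin precursor, read 5.87, 5.86 and 5.89 in B6By.C.132.54, 5.53, 6.07 and 5.86 in BALB/cJ, and 5.78, 5.89 and 5.92 in C57BL/6ByJ. The BALB/cJ arrays spanned more than those of both other strains together. The strain differences lay between -0.04 for BALB/cJ against C57BL/6ByJ (95% interval -0.31 to 0.23) and 0.05 for B6By.C.132.54 against BALB/cJ (-0.22 to 0.32).

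**Figure D2:**
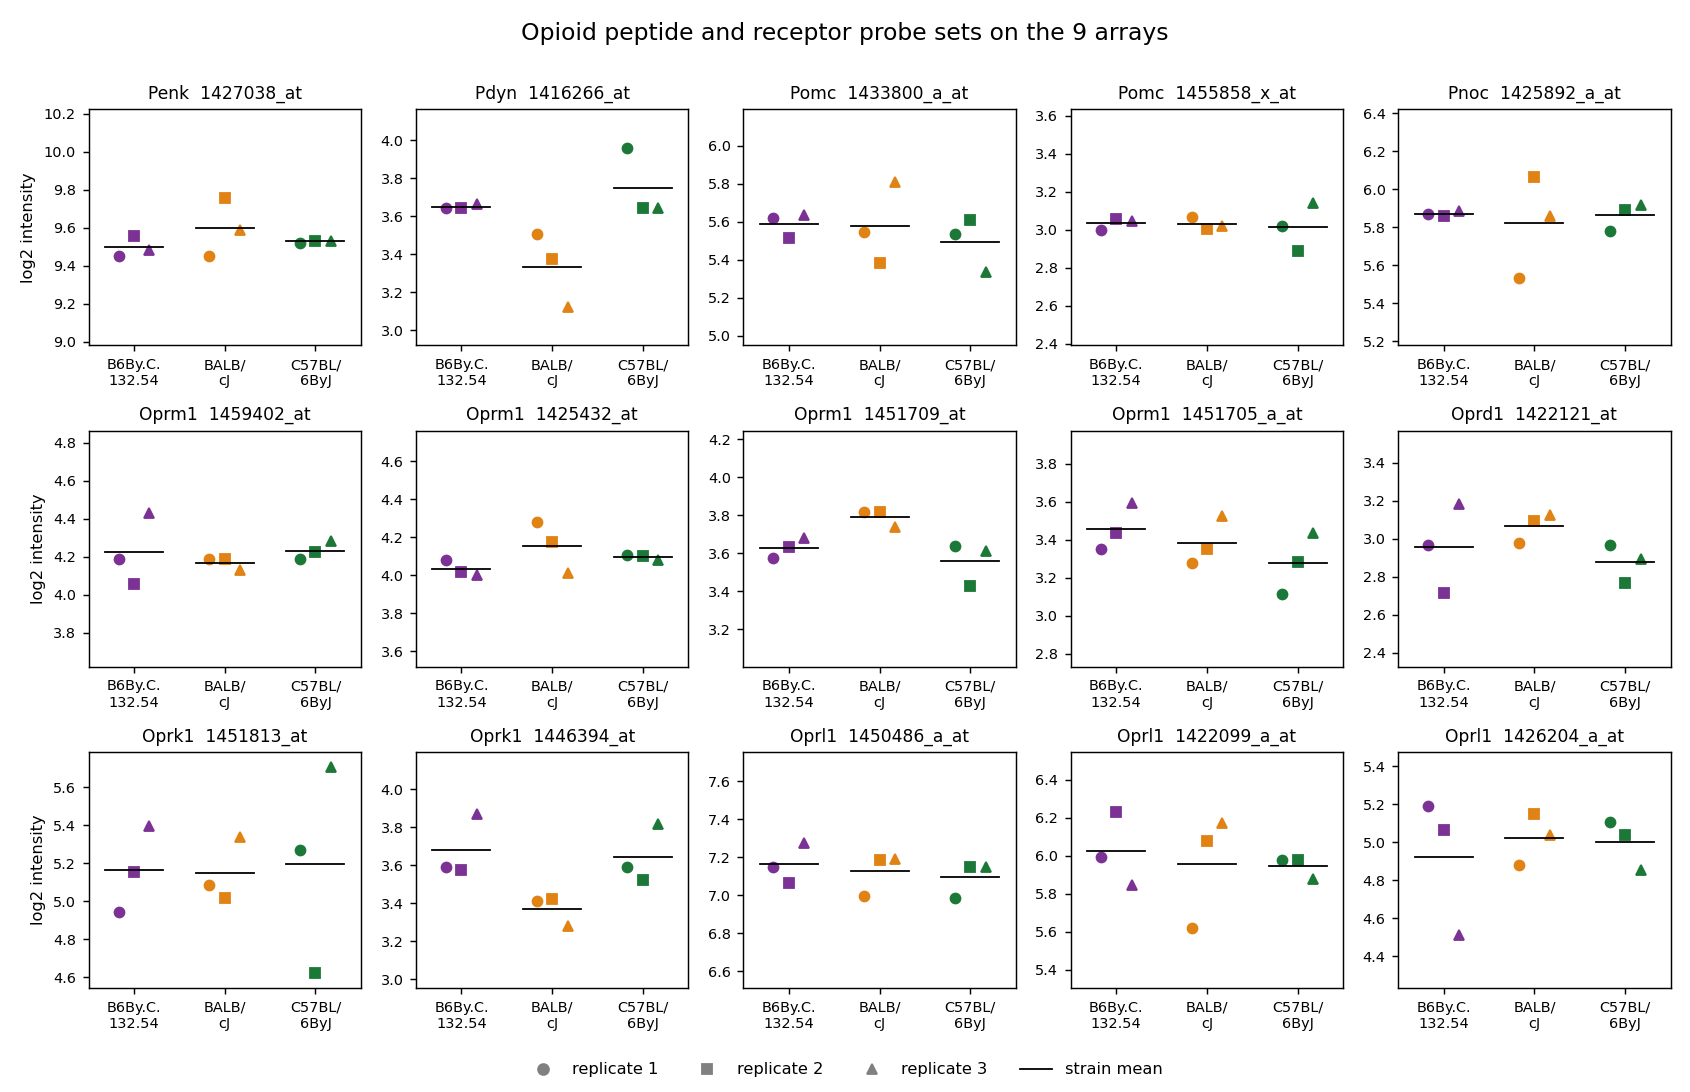
Each panel gives the log2 intensity of 1 probe set on the 9 arrays, with B6By.C.132.54, BALB/cJ and C57BL/6ByJ from left to right, a symbol for each replicate number and a black line at the strain mean. Every y axis spans the same range, so scatter can be compared between panels. The BALB/cJ arrays of Pdyn (3.12 to 3.50) lie below those of both other strains, while those of Penk (9.45 to 9.76) overlap them.

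Among the receptors, Oprm1, the mu receptor and main target of morphine (chromosome 10), was read by 4 probe sets, all close to or below the median probe set. The brightest, 1459402_at, read 4.19, 4.06 and 4.43 in B6By.C.132.54, 4.19, 4.19 and 4.13 in BALB/cJ, and 4.19, 4.22 and 4.28 in C57BL/6ByJ. Probe set 1451709_at read 3.57, 3.64 and 3.68 in B6By.C.132.54, 3.82, 3.82 and 3.74 in BALB/cJ, and 3.64, 3.43 and 3.61 in C57BL/6ByJ. The BALB/cJ arrays of 1451709_at lay above all others, by 0.23 on average over C57BL/6ByJ (95% interval 0.04 to 0.42, limma adjusted p = 0.466), while B6By.C.132.54 differed from BALB/cJ by -0.16 (-0.35 to 0.03, limma adjusted p = 0.756).

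The other 3 Oprm1 probe sets did not repeat this separation. BALB/cJ minus C57BL/6ByJ was -0.06 for 1459402_at, 0.06 for 1425432_at and 0.11 for 1451705_a_at, each with overlapping arrays and an interval on both sides of 0. The gene makes several spliced transcripts, and which of them each probe set reads was not examined here.

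Oprd1, the delta receptor (1422121_at, chromosome 4), had the dimmest signal of the 8 genes by percentile. It read 2.97, 2.71 and 3.18 in B6By.C.132.54, 2.98, 3.09 and 3.12 in BALB/cJ, and 2.97, 2.77 and 2.89 in C57BL/6ByJ. The BALB/cJ arrays all lay above those of C57BL/6ByJ, with a difference of 0.19 (95% interval -0.07 to 0.45, limma adjusted p = 0.844). The B6By.C.132.54 arrays covered the whole range of the other strains.

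Oprk1, the kappa receptor through which dynorphins act (chromosome 1), was read by a pair of probe sets. The brighter, 1451813_at, read 4.94, 5.15 and 5.39 in B6By.C.132.54, 5.09, 5.01 and 5.34 in BALB/cJ, and 5.27, 4.62 and 5.70 in C57BL/6ByJ. It had the largest spread within strains of all 15 probe sets (residual SD 0.353), and the C57BL/6ByJ arrays alone held both extremes. The dimmer, 1446394_at, read 3.59, 3.58 and 3.87 in B6By.C.132.54, 3.41, 3.43 and 3.28 in BALB/cJ, and 3.59, 3.53 and 3.82 in C57BL/6ByJ.

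For 1446394_at the BALB/cJ arrays lay below all others. B6By.C.132.54 averaged 3.68 ± 0.17 and BALB/cJ 3.37 ± 0.081, a difference of 0.31 (95% interval 0.06 to 0.55, limma adjusted p = 0.456), and BALB/cJ minus C57BL/6ByJ was -0.27 (-0.52 to -0.03, limma adjusted p = 0.563). For 1451813_at the same differences were 0.02 (-0.48 to 0.52) and -0.05 (-0.55 to 0.45). These intervals are wide enough to hold the values of the dimmer probe set.

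Oprl1, the nociceptin receptor (chromosome 2), had 3 probe sets, all above the median. The brightest, 1450486_a_at, read 7.15, 7.06 and 7.28 in B6By.C.132.54, 7.00, 7.19 and 7.19 in BALB/cJ, and 6.99, 7.15 and 7.15 in C57BL/6ByJ. The strains overlapped, with differences of 0.07 for B6By.C.132.54 against C57BL/6ByJ (95% interval -0.14 to 0.28) and 0.03 for BALB/cJ against C57BL/6ByJ (-0.18 to 0.24). The second, 1422099_a_at, ran from 5.62 to 6.23 over the 9 arrays and the third, 1426204_a_at, from 4.51 to 5.19, and both overlapped in every pair of strains.

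The counts over the 15 probe sets stand beside those over all probe sets as follows. In BALB/cJ against C57BL/6ByJ, 0 of the 15 were called by limma at an adjusted p under 0.05, against 1.43% of all probe sets, and 3 (20%) had an unadjusted p under 0.05, against 7.58%. In B6By.C.132.54 against BALB/cJ, 0 were called, against 1.28% of all, and 2 (13.3%) had an unadjusted p under 0.05, against 7.5%. In B6By.C.132.54 against C57BL/6ByJ, 0 were called and 0 had an unadjusted p under 0.05, against 0% and 3.89% of all. In the F test over the 3 strains together, 0 of the 15 were called, against 1.28% of all, and Pdyn and Oprk1 (1446394_at) had an unadjusted p under 0.05, against 6.85% of all; the lowest limma adjusted p was 0.407, for Pdyn.

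Arrays that did not overlap between strains were found for Pdyn, Oprm1 (1451709_at), Oprd1 and Oprk1 (1446394_at) in BALB/cJ against C57BL/6ByJ, 26.7% of the 15 against 12.6% of all probe sets. In B6By.C.132.54 against BALB/cJ they were Pdyn, Oprm1 (1451709_at) and Oprk1 (1446394_at), 20% against 9.51% of all, and in B6By.C.132.54 against C57BL/6ByJ there were none, against 6.62% of all. All 4 of these probe sets are among the 6 dim ones. Any pair of these comparisons shares the arrays of 1 strain, so the counts are not independent of each other. The median difference over the 15 was 0.02 in BALB/cJ against C57BL/6ByJ, 0.02 in B6By.C.132.54 against C57BL/6ByJ and 0.02 in B6By.C.132.54 against BALB/cJ, beside 0.02, -0.01 and -0.02 over all probe sets.

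The precision of these arrays bounds what could have been missed. In both comparisons of B6By.C.132.54, the 95% intervals of all 15 probe sets lay within a 1.5-fold change either way. In BALB/cJ against C57BL/6ByJ this held for 14 of 15, the exception being Pdyn, whose interval reached -37.4%. The intervals reached a median of 0.24 to either side on the log2 scale. These bounds hold for the deposited intensities; whether a dim probe set follows its RNA in proportion was not tested.

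**Figure D3:**
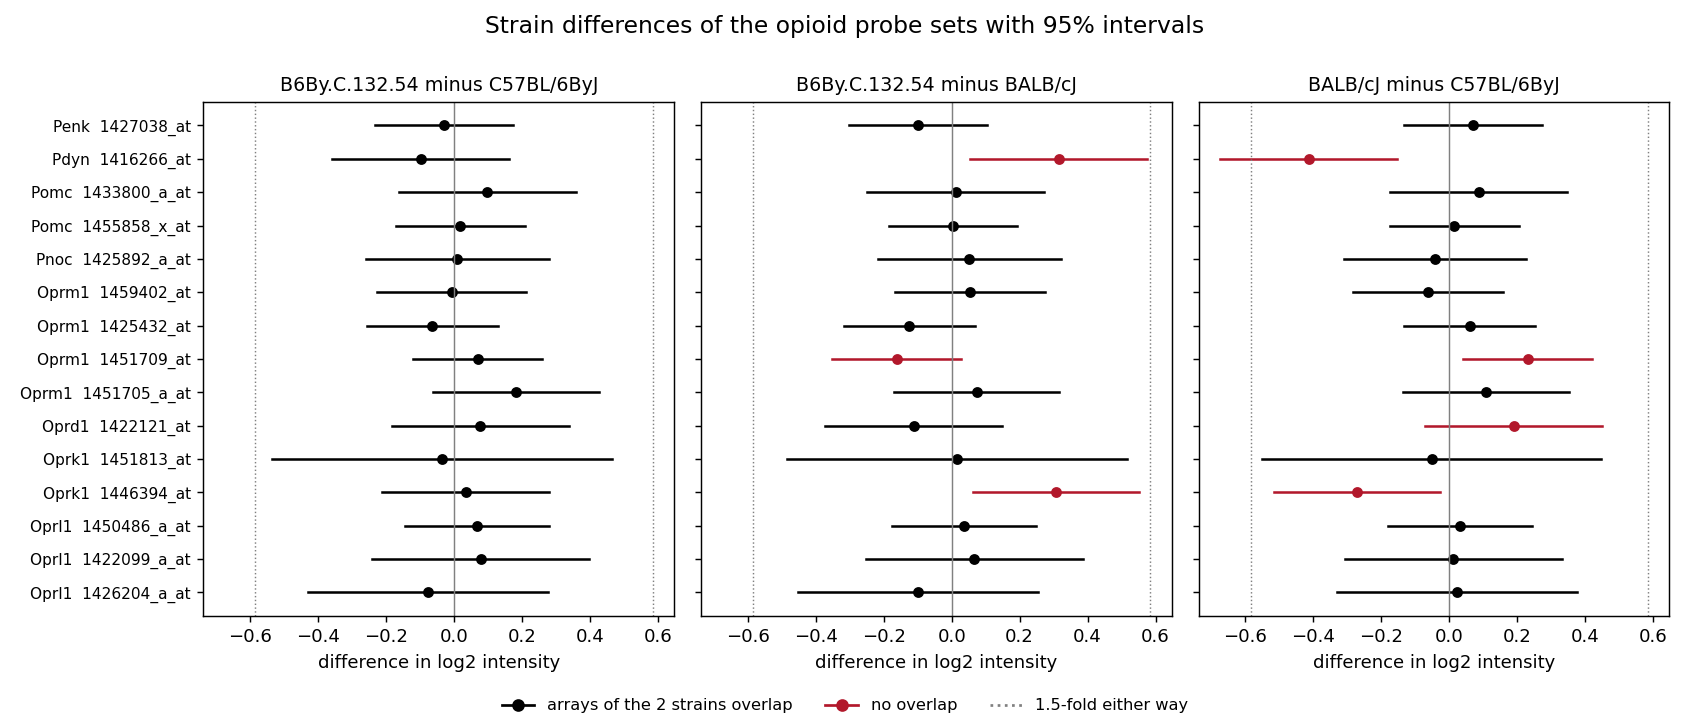
Points give the difference in log2 intensity of each probe set for B6By.C.132.54 minus C57BL/6ByJ, B6By.C.132.54 minus BALB/cJ and BALB/cJ minus C57BL/6ByJ, and lines the 95% interval from limma. Red marks probe sets whose arrays do not overlap between the strains, and dotted lines a 1.5-fold change. No interval crosses a dotted line except that of Pdyn in the right panel (-0.67 to -0.15).

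In some of the 15 probe sets the scatter followed the replicate number in the labels. For Oprk1 (1451813_at) replicate 3 was the highest array in each of the 3 strains, on average 0.31 above its strain mean, and replicate 2 lay 0.24 below it on average. For Oprm1 (1451705_a_at) replicate 3 lay 0.14 above and replicate 1 0.13 below its strain mean on average, with the same order in all 3 strains. For Oprm1 (1425432_at) replicate 1 was the highest array in every strain. The same number was highest in all 3 strains for these 3 of the 15 probe sets (20%), against 19.5% of all probe sets. These 3 were picked for that trait, which was about as common among the 15 as over all probe sets. The work was done in batches that each held all 3 strains, but no label says that a number stands for a batch. With the replicate number as a block, no opioid probe set was called, and the limma adjusted p of Pdyn in BALB/cJ against C57BL/6ByJ was 0.0732.

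**Figure D4:**
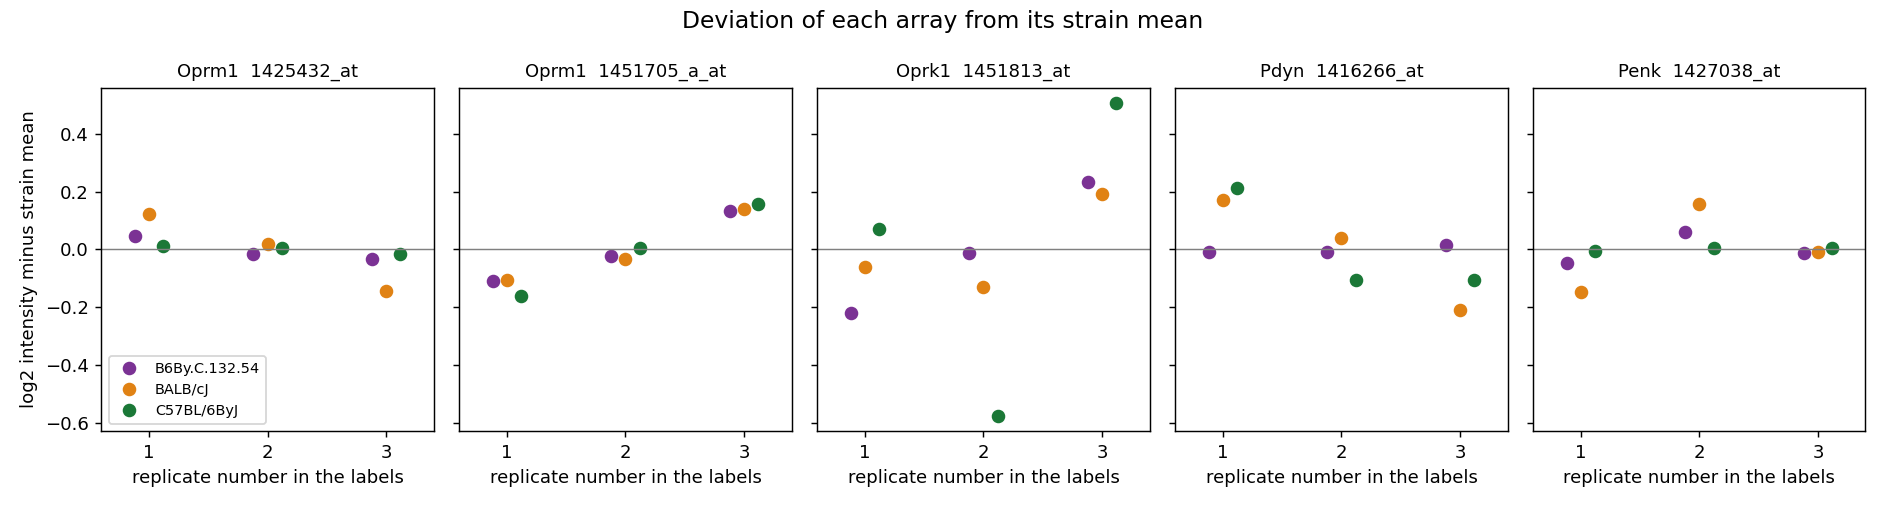
Each point is 1 array, plotted as its log2 intensity minus the mean of its strain against its replicate number, with B6By.C.132.54, BALB/cJ and C57BL/6ByJ in 3 colours, for the 3 probe sets just named and for Pdyn and Penk. In the panel of Oprm1 1451705_a_at the 3 strains fall together at each number (means of -0.13, -0.02 and 0.14), while in that of Penk the points farthest from 0 are the BALB/cJ arrays of replicates 1 and 2.

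The 8 genes showed no clear common variation over the 9 arrays, which are too few to exclude one. Across the 28 pairs of their brightest probe sets Pearson's r ran from -0.45 (Penk with Pdyn) to 0.69 (Penk with Pnoc), with a median of 0.11, as a description over arrays that share strains and possibly batches. The genes outside the family that followed a member most closely over the 9 arrays were Smyd4 for Penk (r = 0.98), Poc1a for Pomc (0.94), Gpn1 for Pnoc (0.94), Rph3al for Oprm1 (0.96), Mbl1 for Oprk1 (0.96) and Dtx2 for Oprl1 (0.93). A best match of this size was usual: over 11469 genes above the median level, the best r had a median of 0.97. Likeness over 9 arrays therefore did not single out any of them.

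The genes that make, degrade and relay opioid peptides were read from lists of 51 genes, of which 46 were measured by 109 probe sets. In BALB/cJ against C57BL/6ByJ, 3 probe sets (2.75%) were called, beside the 1.43% given above for all probe sets. In B6By.C.132.54 against BALB/cJ 3 (2.75%) were called, beside 1.28% of all, and in B6By.C.132.54 against C57BL/6ByJ 0 (0%) were called, beside 0% of all. The called probe sets were of the same 3 genes, Scg5, Ogfrl1 and Rgs9, and both comparisons use the BALB/cJ arrays.

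Among 9 processing enzymes and their helpers, Scg5 was the 1 gene called. It encodes 7B2, the chaperone that the prohormone convertase PC2 needs to become active. Its only probe set, 1423150_at, read 9.46, 9.29 and 9.09 in B6By.C.132.54, 10.23, 10.17 and 10.09 in BALB/cJ, and 9.54, 9.46 and 9.27 in C57BL/6ByJ. The BALB/cJ arrays lay above all others, and the other strains overlapped. BALB/cJ was 0.74 higher than C57BL/6ByJ (SE 0.11, limma adjusted p = 0.00569), and B6By.C.132.54 fell by 0.88 relative to BALB/cJ (SE 0.11, limma adjusted p = 0.00181). Its 8 measured companions on this list of processing enzymes and helpers were not called in any pair, and the PC2 gene itself was not analysed here.

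Ogfrl1, named for its likeness to the opioid growth factor receptor, which is not one of the classical receptors, had 3 probe sets that disagreed. Probe set 1424412_at read 7.28, 7.57 and 7.15 in B6By.C.132.54, 6.59, 6.65 and 6.84 in BALB/cJ, and 7.59, 7.58 and 7.65 in C57BL/6ByJ. It was lower in BALB/cJ than in C57BL/6ByJ by a difference of -0.91 (limma adjusted p = 0.00156) and 0.64 higher in B6By.C.132.54 than in BALB/cJ (0.0192). The brightest Ogfrl1 probe set, 1424413_at, gave -0.20 and 0.03 for the same differences and the third, 1424414_at, gave -0.10 and 0.05, none of them called. The call in B6By.C.132.54 against BALB/cJ was lost in 4 of 14 other settings, among them those without BALB/cJ replicate 1, BALB/cJ replicate 2 or B6By.C.132.54 replicate 1 (highest limma adjusted p = 0.107).

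Rgs9 encodes a regulator of G protein signalling that is enriched in striatum and shortens signals of the mu receptor. It was called only at 1439635_at, near the median probe set, which read 3.80, 4.23 and 3.89 in B6By.C.132.54, 4.58, 4.63 and 4.73 in BALB/cJ, and 3.89, 3.77 and 4.19 in C57BL/6ByJ. BALB/cJ was 0.70 higher than C57BL/6ByJ (limma adjusted p = 0.027), and B6By.C.132.54 fell by 0.68 relative to BALB/cJ (0.0354). The brightest Rgs9 probe set, 1418691_at, gave 0.14 and -0.25 for these differences and was not called (limma adjusted p = 0.938 and 0.747). The call in BALB/cJ against C57BL/6ByJ was lost in 6 of 14 other settings, with a pseudocount of 16 and without any one of the BALB/cJ arrays or of C57BL/6ByJ replicates 1 and 2 (highest limma adjusted p = 0.146), and that in B6By.C.132.54 against BALB/cJ in 8 of 14 (0.168).

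The rest of the pathway gave no call without the replicate block. Among 10 peptide-degrading enzymes, which include neprilysin (Mme) and aminopeptidase N (Anpep), both of which cut enkephalins, the differences of the brightest probe sets in BALB/cJ against C57BL/6ByJ ran from -0.19 to 0.52. The highest was that of Ece1, an endothelin-converting enzyme, named here after its values were seen, which had a limma adjusted p of 0.431 and was called with the replicate block (0.0404). Another Ece1 probe set was called with the block in B6By.C.132.54 against BALB/cJ, at a difference of 0.48 (limma adjusted p = 0.0461, and 0.211 without the block), while the brightest one gave -0.34 in that comparison. Among 13 genes for G proteins and effectors they ran from -0.13 to 0.20. Of the 11 genes for receptor desensitisation and RGS proteins, all 11 were lower in B6By.C.132.54 than in C57BL/6ByJ at their brightest probe set, by a median difference of -0.11, and none was called. Over all genes 55.1% were lower in that comparison, and 67.3% of those above the median level. After quantile normalization 7 of the 11 were lower, with a median difference of -0.04, against 45.8% of all genes and a median of 0.01.

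**Figure D5:**
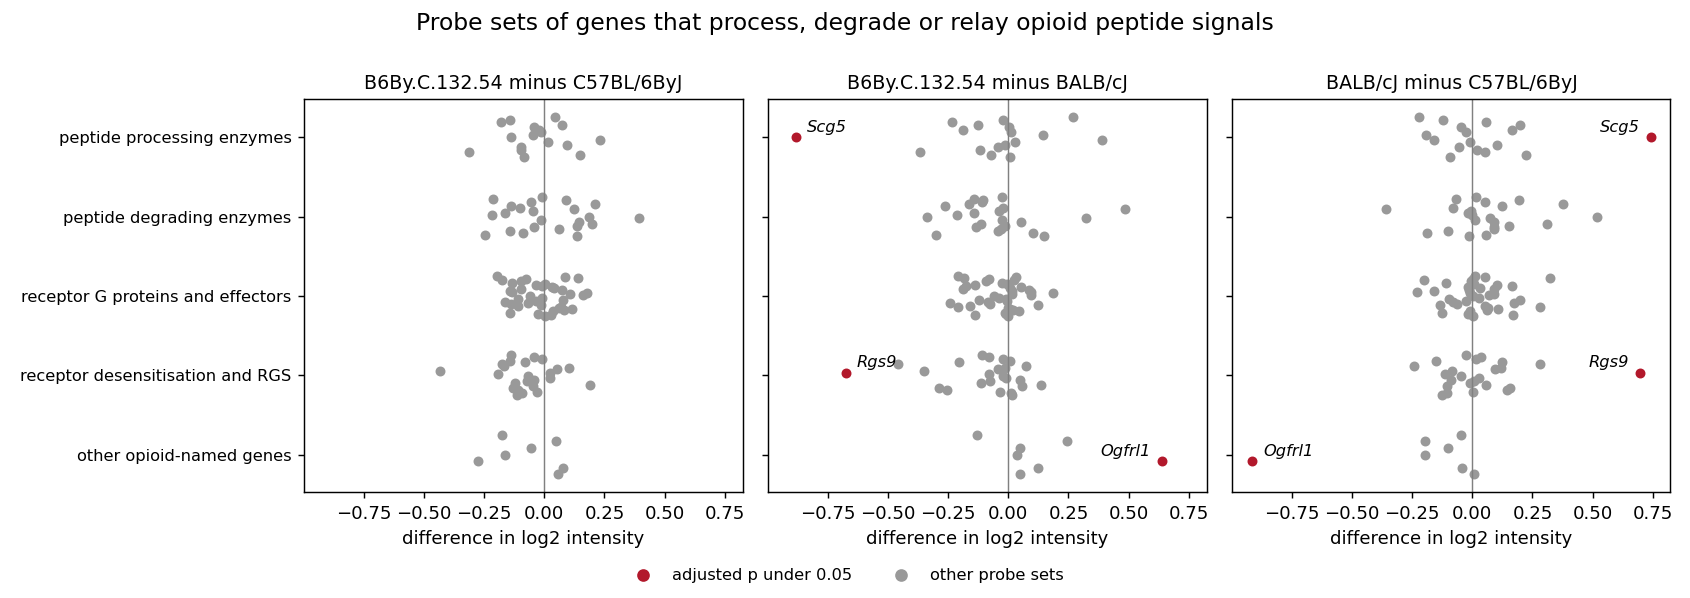
Each point is 1 of 109 probe sets of genes that process, degrade or relay opioid peptide signals, placed by its difference in log2 intensity for B6By.C.132.54 minus C57BL/6ByJ, B6By.C.132.54 minus BALB/cJ and BALB/cJ minus C57BL/6ByJ. Red points have a limma adjusted p under 0.05: Scg5 at -0.88 and 0.74, Rgs9 at -0.68 and 0.70 and Ogfrl1 at 0.64 and -0.91 in the middle and right panels, with none in the left panel.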

How the data were processed

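The authors deposited 1 linear signal intensity per probe set and array (Affymetrix Mouse430_2). GCOS and RMA are the tools listed, per the submitters' processing notes, with no versions or order; background treatment and normalization are not given in the sources used here. The log2 of each intensity was used as deposited, with neither a pseudocount nor further normalization. Of 45101 probe sets, 64 controls were left out. Gene names came from GEO's platform annotation, updated through RefSeq (GRCm38.p6), which also gave chromosomes; the brightest probe set stood for a gene in gene counts. A limma 3.58.1 model (R 4.3.3; 6 residual degrees of freedom) gave each strain a mean over its arrays, and p-values were adjusted by Benjamini-Hochberg over 45037 probe sets (threshold 0.05). Intervals are 95% and unadjusted. The model was tested on simulated data. Same-numbered arrays of different strains deviated together (r = 0.15 to 0.54 in 9 of 9 pairs), so the replicate number was also tried as a block, as were quantile normalization, a pseudocount of 16, a filter on dim probe sets, each pair of strains alone, and leaving out each array. Every opioid probe set was named, and most other genes by a fixed rule: called pathway genes and closest correlates. Outside that rule Tac1, Drd1, Lhb, Ece1, Mme and Anpep were named from the lists, after the values were seen. The members and lists were chosen with earlier results of these data known. The number of arrays limits the precision.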

Additional observations from a re-analysis of the deposited data

How the results depend on the processing

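No opioid probe set was called under any other setting run, which were 14 for the 9 brighter probe sets and 13 for the 6 dim ones, Pdyn and Oprd1 among them, since the filter on dim probe sets removed these; the lowest limma adjusted p was 0.0732, for Pdyn in BALB/cJ against C57BL/6ByJ with the replicate block, and the block changed no call of these probe sets. The numbers of all probe sets called with the replicate block were 953 in BALB/cJ against C57BL/6ByJ, 834 in B6By.C.132.54 against BALB/cJ and 0 in B6By.C.132.54 against C57BL/6ByJ, against 644, 575 and 0 without it. Leaving out 1 array at a time gave 410 to 706 in BALB/cJ against C57BL/6ByJ, the lowest without C57BL/6ByJ replicate 2. Among the 109 pathway probe sets the block added 1 call of Ece1 in each of the comparisons with BALB/cJ, and no other setting added one. The call of Scg5 held in both comparisons under all 14 settings. That of Ogfrl1 1424412_at in BALB/cJ against C57BL/6ByJ also held under all 14. These settings were applied to the pathway genes after the data were seen. Of 45 differences of opioid probe sets, 17 kept their sign throughout and 28, none larger than 0.11, changed it in 51 of 612 refits; no cause was tested. Quantile normalization gave -0.022 for Pomc 1455858_x_at in BALB/cJ against C57BL/6ByJ, and 0.043 for Penk, -0.011 for Pomc 1455858_x_at and 0.0026 for Oprk1 1451813_at in B6By.C.132.54 against C57BL/6ByJ. The remaining sign changes came with 1 array left out, over the following ranges. In BALB/cJ against C57BL/6ByJ they were -0.010 to 0.14 for Penk, -0.028 to 0.18 for Pomc 1433800_a_at, -0.049 to 0.077 for Pomc 1455858_x_at and -0.16 to 0.10 for Pnoc. For the receptors they were -0.0011 to 0.13 for Oprm1 1425432_at, -0.34 to 0.20 for Oprk1 1451813_at, -0.022 to 0.095 for Oprl1 1450486_a_at, -0.098 to 0.18 for 1422099_a_at and -0.051 to 0.093 for 1426204_a_at. In B6By.C.132.54 against C57BL/6ByJ they were -0.15 to 0.0077 for Pdyn, -0.045 to 0.081 for Pomc 1455858_x_at, -0.032 to 0.038 for Pnoc and -0.11 to 0.077 for Oprm1 1459402_at. They were -0.036 to 0.20 for Oprd1, -0.32 to 0.22 for Oprk1 1451813_at, -0.062 to 0.12 for 1446394_at, -0.025 to 0.17 for Oprl1 1422099_a_at and -0.21 to 0.13 for 1426204_a_at. In B6By.C.132.54 against BALB/cJ they were -0.087 to 0.13 for Pomc 1433800_a_at, -0.0097 to 0.022 for 1455858_x_at, -0.092 to 0.17 for Pnoc and -0.047 to 0.14 for Oprm1 1459402_at. They were -0.23 to 0.0092 for Oprd1, -0.099 to 0.13 for Oprk1 1451813_at, -0.027 to 0.086 for Oprl1 1450486_a_at, -0.10 to 0.18 for 1422099_a_at and -0.23 to 0.11 for 1426204_a_at. Low signals, close to or below the median probe set, limit the results on Pdyn, Oprd1, Oprm1 and the dimmer probe sets of Pomc and Oprk1.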
